A study of Mus musculus with 29 samples.

Results

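The genes described here encode subunits of the receptors for glutamate and GABA, the main excitatory and inhibitory transmitters of the forebrain. They were chosen by name: a probe set with a single gene symbol made of Gria, Grik, Grin or Grm and a digit, or starting with Gabr. This gave 33 probe sets of 27 genes, out of 12393 genes with a single symbol, and the brightest probe set of each gene, averaged over the 29 arrays, represents it. The annotation of the mouse genome (RefSeq, GRCm38.p6) holds 43 genes under the same name rule, so the set is a part of each family. The 27 are 4 AMPA receptor genes (Gria1 to Gria4), 4 kainate receptor genes (Grik1, Grik2, Grik3 and Grik5), 5 NMDA receptor genes (Grin2a, Grin2b, Grin2c, Grin2d and Grin3b), 1 metabotropic glutamate receptor gene (Grm8), 3 GABA-A alpha genes (Gabra2, Gabra3 and Gabra6), 2 beta genes (Gabrb1 and Gabrb2) and 8 other Gabr genes (Gabrd, Gabre, Gabrg1, Gabrg3, Gabrp, Gabrq, Gabrr1 and Gabrr2).

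Total RNA of the prefrontal cortex (18 arrays) and the caudate-putamen (11 arrays), the dorsal striatum, was hybridised to Affymetrix arrays. The mice were FVB/N, the parent strain, or one of the transgenic lines on that background: TgS mice express the AChE-S variant of human acetylcholinesterase and TgR mice the AChE-R variant. The sources used here do not give the promoter that drives each transgene, the age and sex of the mice or the number of mice behind an array. MPTP, a compound whose metabolite kills dopamine neurons, was injected 4 times at 20 mg/kg, 2 h apart, for a total of 80 mg/kg, and tissue was taken 4 days later. Per strain, 6 mice received MPTP and 6 saline (36 mice in all). The unexposed arrays are labelled naive, and whether they are the saline-injected mice is not stated. Naive caudate-putamen and both MPTP arms have 2 arrays per strain, except MPTP-exposed TgR caudate-putamen with 1. Naive prefrontal cortex has 4 arrays per strain, in a pair of sets that the source labels spell differently: replicates 1 and 2, and replicates 3 and 4. One naive FVB/N caudate-putamen array (replicate 2) carries a description that calls it MPTP-exposed, against its title, source and treatment label. It was kept as naive. Nothing in the labels says that arrays of a group come from different animals, so p-values measure the spread between arrays, which may be technical.

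AMPA, kainate and NMDA receptors are glutamate-gated cation channels built of 4 subunits. The subunits set how fast the channel opens and closes, and whether calcium passes through it. Metabotropic receptors such as that of Grm8 act through G proteins, here to restrain transmitter release. GABA-A receptors are chloride channels of 5 subunits; most hold alpha and beta subunits with a gamma or a delta subunit, and the alpha and gamma subunits shape where in the neuron a receptor sits and how it responds to benzodiazepines. In the caudate-putamen most neurons are GABA-releasing projection neurons that receive glutamate from the cortex, whereas most prefrontal neurons release glutamate themselves.

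The region labels held up against a defining marker of each region, though markers of neighbouring tissue varied among arrays. The striatal dopamine receptor gene Drd2 read 6.25 to 6.69 on the log2 scale in the prefrontal arrays used below and 10.74 to 11.43 in the caudate-putamen, and Neurod6, a factor of cortical pyramidal neurons, read 9.57 to 10.75 against 5.12 to 8.37. Naive prefrontal replicates 1 and 2 (6 arrays) stood apart from the other 23. Their Xist signal, from the X-inactivation RNA of female cells, was 8.62 to 10.61 against 6.78 to 7.24, their Y-linked Eif2s3y signal was 3.42 to 3.83 against 8.41 to 9.20, and their 5′ minus 3′ actin difference, a sign of RNA integrity, reached -2.30 against -1.41 at most elsewhere. Drd2 read 6.97 to 8.16 in replicates 1 and 2. The mean of 10 striatal projection neuron markers was 8.44 to 9.27 there, against 8.05 to 8.22 in the other prefrontal arrays. Naive prefrontal cortex therefore means replicates 3 and 4 below, and values with replicates 1 and 2 are given where they turn a result. Array medians lay between 7.61 and 7.78. In the prefrontal cortex they were 7.66 to 7.70 on naive replicates 3 and 4 and 7.76 to 7.78 on MPTP arrays, without overlap.

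Because neighbouring GABA-A genes differed in their regional pattern, the promoters of the 4 genes that follow are shown first. In RefSeq's GRCm38.p6 annotation, Gabrg1, Gabra2 and Gabrb1 lie in a GABA-A gene cluster on chromosome 5 with Gabrg1 and Gabra2 next to each other, Gabra3 lies between Gabre and Gabrq on the X chromosome, and Grik2 is on chromosome 10. RefSeq promoter entries, windows of 300 bases that lie mostly upstream of a gene's start and are read on its strand, were found for 21 of the 27 genes, in 27 entries. Capitals mark CpG dinucleotides, the sites of DNA methylation in mammals.
Gabra2 promoter, chr5:71095800-71096099, minus strand: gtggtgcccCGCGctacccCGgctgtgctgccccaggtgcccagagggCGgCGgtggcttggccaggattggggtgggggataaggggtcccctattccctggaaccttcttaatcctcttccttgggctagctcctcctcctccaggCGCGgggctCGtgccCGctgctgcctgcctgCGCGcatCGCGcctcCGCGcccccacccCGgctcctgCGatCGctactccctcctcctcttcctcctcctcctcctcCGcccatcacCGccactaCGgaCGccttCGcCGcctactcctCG
Gabra3 promoter, chrX:72656870-72657169, minus strand: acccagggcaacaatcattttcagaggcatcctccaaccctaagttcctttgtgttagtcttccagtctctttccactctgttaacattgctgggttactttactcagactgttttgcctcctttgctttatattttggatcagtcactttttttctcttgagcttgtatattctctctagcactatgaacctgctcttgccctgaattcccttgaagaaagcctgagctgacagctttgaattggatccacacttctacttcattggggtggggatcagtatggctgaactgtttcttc
Gabrg1 promoter, chr5:70842568-70842867, minus strand: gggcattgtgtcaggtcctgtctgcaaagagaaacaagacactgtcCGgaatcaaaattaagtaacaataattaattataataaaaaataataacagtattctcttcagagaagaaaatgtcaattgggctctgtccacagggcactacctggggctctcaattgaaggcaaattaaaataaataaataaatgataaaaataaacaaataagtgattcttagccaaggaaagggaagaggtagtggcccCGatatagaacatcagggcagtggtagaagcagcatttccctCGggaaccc
Grik2 promoter, chr10:49788705-49789004, minus strand: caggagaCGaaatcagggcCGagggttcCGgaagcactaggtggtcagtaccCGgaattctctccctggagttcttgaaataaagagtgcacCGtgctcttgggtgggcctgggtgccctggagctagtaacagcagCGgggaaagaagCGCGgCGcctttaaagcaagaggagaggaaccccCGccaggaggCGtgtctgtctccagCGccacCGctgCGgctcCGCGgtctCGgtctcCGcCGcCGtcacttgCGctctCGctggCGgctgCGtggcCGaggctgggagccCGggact

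The Gabra2 window holds 25 CpGs, the Grik2 window 26, the Gabrg1 window 3 and the Gabra3 window 0. The median was 7 over all 32851 promoter entries and 10 over those of the receptor genes. The neighbours Gabra2 and Gabrg1 thus start in windows of very different CpG content. The letters TATAAA, searched on both strands, were in 4 of the 27 entries, Gabra3's among them, and in 13.6% of all promoters. CCAAT was in 11 entries, those of Gabra2, Gabra3 and Gabrg1 included, against 37.4% of all promoters. GGGCGG was in 10 entries, Gabra2's among them, against 35.7%. These matches describe the letters of the window and were not tested for binding.

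The comparison of the regions asked how subunit expression differs between cortex and striatum. In naive mice 17 of the 27 genes differed (adjusted p under 0.05, limma with Benjamini-Hochberg adjustment over all 22626 transcripts, called below), 7 higher and 10 lower in the prefrontal cortex, against 50% of all transcripts called (22% higher and 28% lower). After MPTP, in arrays not shared with the naive comparison, 16 differed, 8 in each direction, against 50.7% of all transcripts (23.7% higher and 27% lower). The members' shares, 63% and 59.3%, stood near those backgrounds, while their median absolute log2 difference was 0.28 and 0.24 against 0.14 and 0.15 for all transcripts. In both comparisons 11 genes were called. Gria3, Gria4, Grm8, Gabra3 and Gabrb2 were higher in the prefrontal cortex both times, Gria1, Grik2, Gabre, Gabrg1 and Gabrq lower both times, and Grin2d changed sides. The arrays of the regions did not overlap for 7 genes in naive mice and 8 after MPTP, against 22.8% and 29.9% of all transcripts. In bulk tissue, fewer cells of a type and less RNA per cell cannot be told apart.

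**Figure D1:**
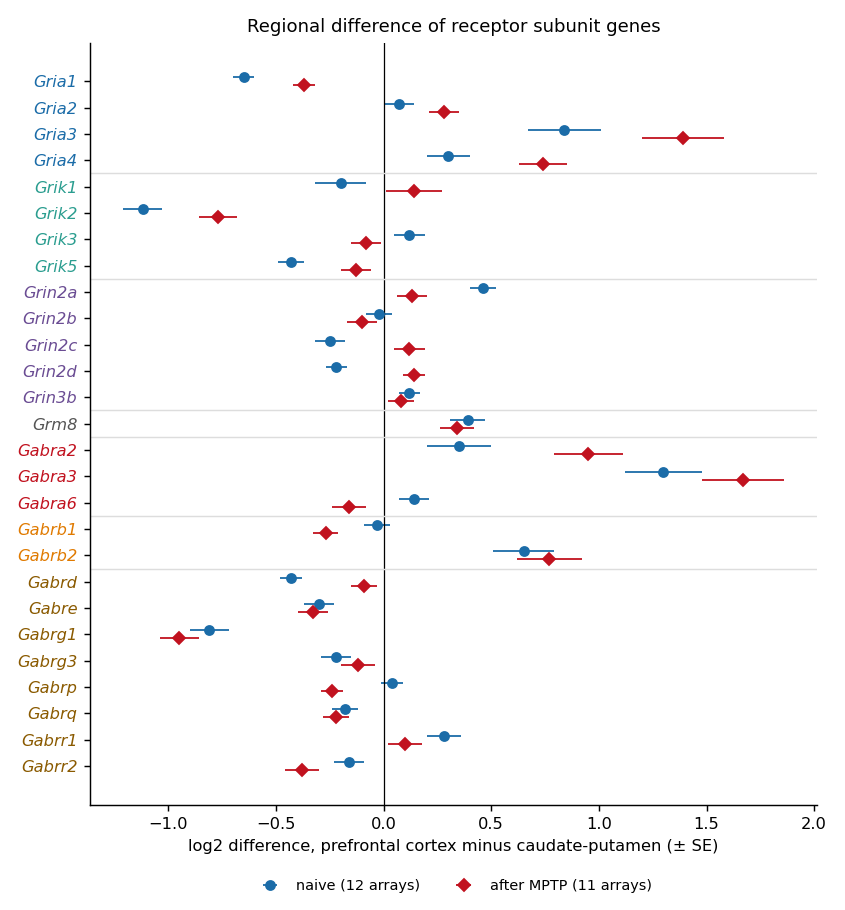
Log2 difference (prefrontal cortex minus caudate-putamen, mean of 3 strains, bars ± SE) of each of the 27 genes in naive mice (circles) and after MPTP (diamonds), with gene names coloured by receptor class. Gabra3 and Gria3 lie farthest to the right and Grik2 and Gabrg1 farthest to the left in both comparisons.

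Of the AMPA genes, Gria3 and Gria1 went opposite ways. Gria3 (1420563_at), an AMPA subunit gene on the X chromosome, read 9.81, 10.12 and 10.48 (lowest, median and highest of 6 arrays) in naive prefrontal cortex and 9.03, 9.32 and 9.44 in naive caudate-putamen. After MPTP it read 10.14 to 10.50 in the prefrontal cortex (median 10.27) and 9.08, 8.68, 9.52, 9.56 and 8.28 in the caudate-putamen. The regions did not overlap in either arm, and the log2 difference was 0.84 ± 0.17 (1.79-fold, adjusted p = 0.000486) in naive mice and 1.39 ± 0.19 (2.62-fold, adjusted p = 4.32e-06) after MPTP. Gria1 (1435239_at), which encodes GluA1, a subunit much studied in synaptic plasticity, was on the other side. It read 10.17, 10.30 and 10.51 in naive prefrontal cortex and 10.90, 10.93 and 11.07 in naive caudate-putamen, again with no overlap, for a log2 difference of -0.65 ± 0.05 (1.57-fold lower, adjusted p = 1.08e-09). After MPTP the prefrontal arrays lay between 10.54 and 10.80 while the caudate-putamen arrays lay at 11.13, 11.06, 11.13, 11.04 and 10.93, and the difference was -0.37 ± 0.05.

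Gria4 (1421351_at), an AMPA gene typical of fast-signalling neurons, was higher in the prefrontal cortex by 0.30 ± 0.10 in naive mice, where arrays overlapped (7.72 to 8.08 against 7.28 to 7.96). This call was lost without naive FVB/N caudate-putamen replicate 1 (0.24, adjusted p = 0.0691) or prefrontal replicate 4 (0.26, adjusted p = 0.0608). After MPTP the difference was 0.74 ± 0.11 and the regions were separate, with a prefrontal median of 8.23 (highest 8.41) against 7.43, 7.42, 7.68, 7.54 and 7.44 in the caudate-putamen. Gria2, whose edited product makes AMPA receptors impermeable to calcium, did not pass in naive mice (0.07 ± 0.07). It was higher after MPTP (0.28 ± 0.07, adjusted p = 0.00263), with overlapping arrays. A second Gria2 probe set gave 0.58 ± 0.10 (adjusted p = 0.000101) in naive mice and 0.10 ± 0.11 (adjusted p = 0.465) after MPTP. The arm in which Gria2 differed thus depends on the probe set.

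Among the kainate genes, Grik2 (1425790_a_at), which encodes the main pore-forming subunit GluK2, was lower in the prefrontal cortex. Its signal was 8.34, 8.44 and 8.61 in naive prefrontal cortex and 9.10, 9.69 and 9.85 in naive caudate-putamen. The regions lay well apart, with a log2 difference of -1.12 ± 0.09 (2.18-fold lower, adjusted p = 3.55e-09). After MPTP the prefrontal arrays lay between 8.54 and 8.76 and the caudate-putamen arrays at 9.14, 8.94, 9.88, 9.59 and 9.38, a difference of -0.77 ± 0.09. Grik5, another kainate receptor subunit gene, was lower in naive prefrontal cortex without overlap (-0.43 ± 0.06, 9.92 to 10.30 against 10.33 to 10.74). It did not pass after MPTP (-0.13 ± 0.07, adjusted p = 0.129). Grik1 and Grik3 passed in neither.

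No NMDA gene was called in the same direction both times. Grin2a (1421616_at), the GluN2A gene of mature synapses, read 5.79, 5.85 and 6.10 in naive prefrontal cortex and 5.25, 5.45 and 5.51 in naive caudate-putamen, a log2 difference of 0.46 ± 0.06 (adjusted p = 3.25e-06) without overlap. After MPTP it was 0.13 ± 0.07 (adjusted p = 0.0975). The mean Grin2a signal, 5.68, was among the lowest of the 27 genes. Grin2c, the GluN2C gene, was -0.25 ± 0.07 (called) and then 0.12 ± 0.07 (not called). Grin2d, the GluN2D gene found in many interneurons, was -0.22 ± 0.05 in naive mice and 0.14 ± 0.05 after MPTP, both called with overlapping arrays. The second value lost its call in 8 of the 29 fits that left out 1 array, the lowest being 0.11 without MPTP-exposed FVB/N prefrontal replicate 1. Grin2b and Grin3b passed in neither comparison by their brightest probe sets. A second Grin2b probe set was lower in the prefrontal cortex after MPTP (-0.26 ± 0.05, adjusted p = 0.000464). In naive mice it did not pass (-0.03 ± 0.05), so the Grin2b result after MPTP depends on the probe set. Grm8, a presynaptic glutamate receptor gene, was higher in the prefrontal cortex by 0.39 ± 0.08 and 0.34 ± 0.08 with overlapping arrays.

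The largest difference of the whole set was in the GABA-A alpha genes. Gabra3 (1421263_at), the alpha3 subunit gene, read 9.28, 9.72 and 9.86 in naive prefrontal cortex and 7.80, 8.30 and 8.71 in naive caudate-putamen. After MPTP it read 9.42, 9.68 and 9.76 in the prefrontal cortex and 8.05, 7.85, 8.39, 8.32 and 7.56 in the caudate-putamen. Every prefrontal array was above every caudate-putamen array, by 1.30 ± 0.18 on the log2 scale in naive mice (2.47-fold, adjusted p = 5.23e-06) and 1.67 ± 0.19 after MPTP (3.17-fold, adjusted p = 6.12e-07). Gabra2 (1421738_at), the alpha2 gene, was 0.35 ± 0.15 in naive mice (adjusted p = 0.0528) and 0.95 ± 0.16 after MPTP (adjusted p = 6.07e-05). Its prefrontal arrays lay between 7.28 and 7.70 in both arms. Its caudate-putamen arrays ran from 6.29 to 7.71 in naive mice and read 6.59, 6.34, 7.31, 7.23 and 5.85 after MPTP. Gabra6, known from cerebellar granule cells, had signals of 4.73 to 5.27 and passed in neither. Its second, dimmer probe set passed after MPTP (-0.16 ± 0.06, adjusted p = 0.0252).

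Gabrb2 (1450319_at), a beta subunit gene, was higher in the prefrontal cortex by 0.65 ± 0.14 in naive mice (7.06, 7.53 and 7.70 against 6.30, 6.76 and 7.24, a slight overlap). After MPTP the difference was 0.77 ± 0.15, with 7.01 to 7.59 against 6.74, 6.54, 6.85, 6.72 and 6.46 and no overlap. Gabrb1, the other beta gene, was -0.03 ± 0.06 in naive mice and -0.27 ± 0.06 after MPTP, and the latter lost its call without the single MPTP-exposed TgR caudate-putamen array (-0.14, adjusted p = 0.128).

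Of the 8 remaining Gabr genes, 5 were called lower in the prefrontal cortex in each comparison, against 28% and 27% of all transcripts. Gabrr1 was called higher in naive mice (0.28 ± 0.08, adjusted p = 0.00482), with overlapping arrays, and did not pass after MPTP (0.10 ± 0.08). Gabrg1 (1460408_at), a gamma subunit gene, read 8.78, 9.13 and 9.52 in naive prefrontal cortex and 9.77, 9.94 and 10.14 in naive caudate-putamen, and after MPTP 8.67, 8.86 and 9.05 against 9.96, 10.24, 9.63, 9.96 and 9.48. Both arms were without overlap, at -0.81 ± 0.09 (adjusted p = 2.64e-07) and -0.95 ± 0.09 (adjusted p = 9.47e-08). Its second probe set gave -0.92 ± 0.12 and -0.74 ± 0.13. Thus, of the 2 neighbours on chromosome 5, Gabrg1 was lower in the prefrontal cortex in both arms. Gabra2 was called higher there after MPTP, and its naive difference of 0.35 was near the threshold. Gabre and Gabrq, which flank Gabra3 on the X chromosome, were lower (-0.30 and -0.18 in naive mice, -0.33 and -0.22 after MPTP), opposite to Gabra3. The naive value of Gabrq lost its call in 4 of the 29 fits that left out 1 array, down to -0.12 without naive TgS caudate-putamen replicate 1. Gabrd, the delta subunit gene of extrasynaptic receptors, was lower in naive prefrontal cortex (-0.43 ± 0.05) and did not pass after MPTP (-0.09 ± 0.06). Gabrr2, a rho subunit gene best known from the retina, was lower after MPTP alone (-0.38 ± 0.08; 4.82 to 5.06 against 5.23, 5.45, 5.42, 5.39 and 5.21); that the arms differ was not called (adjusted p = 0.138).

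**Figure D2:**
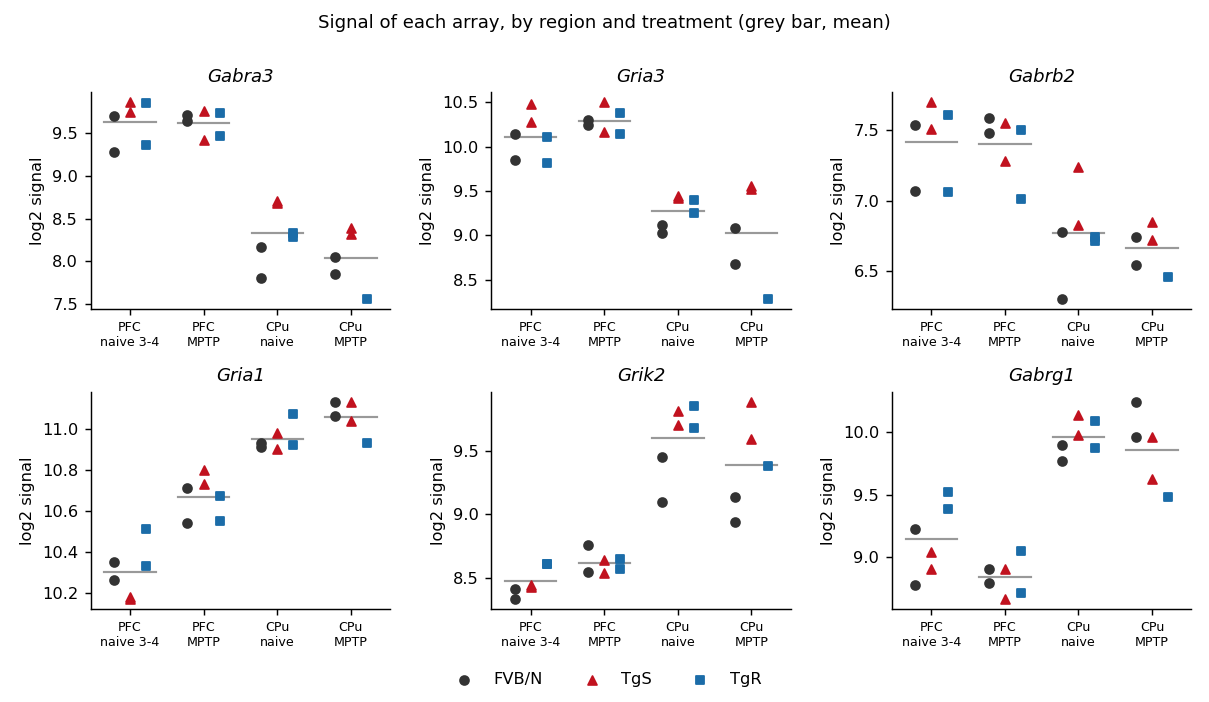
Log2 signal of every array for 6 genes in prefrontal cortex (PFC) and caudate-putamen (CPu), naive (PFC replicates 3 and 4) or after MPTP; symbols mark strains and grey bars the mean of the arrays. Within each arm, naive or MPTP, Gabra3 and Gria3 have no prefrontal array below a caudate-putamen array, while Gria1, Grik2 and Gabrg1 have none above.

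The naive regional values depend on which naive prefrontal arrays are used. With replicates 1 and 2, where 66.3% of transcripts were called, the naive differences of Gabra3 (-0.67), Gria3 (-0.96), Gria4 (-0.89) and Gabrb2 (-0.04, not called) had the opposite sign, while Gria1 (-0.31), Grik2 (-2.02), Gabrg1 (-0.43), Grin2a (0.43) and Grm8 (0.51) kept theirs. The comparison after MPTP uses none of those arrays. Oligodendrocyte markers moved with region, with a mean over 10 genes of 9.60 to 10.05 in the prefrontal arrays and 10.69 to 11.15 in the caudate-putamen, and choroid plexus and ependyma markers (7 genes) read 5.80 to 6.09 against 6.72 to 8.52. After MPTP, 8 of 10 meningeal and fibroblast markers were higher and 1 lower in the prefrontal cortex (means of 7.48 to 7.91 against 6.83 to 7.27), and 7 of 11 microglia markers were lower (9.29 to 9.41 against 9.42 to 9.80). The part of these cells in the subunit differences was not tested.

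The effect of MPTP in the prefrontal cortex was read against naive replicates 3 and 4. Of the 27 genes, 7 rose and 6 fell, and this share of 48.1% was next to that of all transcripts (47.2%, with 26.7% risen and 20.5% fallen). The genes that rose were Grin2c, Grik5, Gabrd, Grin2d, Gria1, Gria4 and Gria2, and those that fell were Gabrg1, Gabrb1, Gabra6, Grik3, Grin2a and Gabrp. For 7 genes, the MPTP and naive arrays did not overlap, against 21% of all transcripts. These comparisons share their naive arrays with the naive regional comparison and their MPTP arrays with that after MPTP.

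Grin2c (1449245_at) rose by 0.54 ± 0.07 (1.45-fold, adjusted p = 4.55e-06), from 8.05, 8.29 and 8.59 to 8.71, 8.82 and 8.96. Grik5 (1418784_at) rose by 0.47 ± 0.06, from 9.92, 10.05 and 10.30 to 10.43, 10.54 and 10.71. Gabrd (1449980_a_at) rose by 0.46 ± 0.05, from 10.81, 10.86 and 10.98 to 11.18, 11.32 and 11.50. In these 3 genes no MPTP array reached down to a naive one. Grin2d (1421393_at) rose by 0.40 ± 0.05, from 6.78 to 6.96 up to 7.14 to 7.35, and Gria1 by 0.37 ± 0.05, from 10.17 to 10.51 up to 10.54 to 10.80, also without overlap. Gria4 (0.30 ± 0.10) and Gria2 (0.20 ± 0.07) passed with overlapping arrays, and lost the call in 5 and 3 of the 29 fits that left out 1 array (down to 0.23 without MPTP-exposed TgS replicate 2 and 0.17 without naive FVB/N replicate 3). The second Gria2 probe set went the other way (-0.50 ± 0.10, adjusted p = 0.000515), so the direction for Gria2 depends on the probe set.

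Of the genes that fell, Gabrg1 fell by 0.30 ± 0.09 with overlapping arrays. Gabrb1 (1419719_at) fell by 0.24 ± 0.06, from 8.48, 8.61 and 8.71 to 8.26, 8.35 and 8.45, and Gabrp (1424647_at), the pi subunit gene, by 0.20 ± 0.05, from 7.70, 7.76 and 7.82 to 7.48, 7.55 and 7.62. Both were without overlap. The second probe sets of Gabrp (0.01 ± 0.08, adjusted p = 0.951) and Gabrg1 (-0.16 ± 0.12, adjusted p = 0.284) did not pass. That of Gabra6 did (-0.16 ± 0.05, adjusted p = 0.0169). So did that of Grin2b (-0.21 ± 0.05, adjusted p = 0.00196), whose brightest probe set was not called (0.06 ± 0.06). Gabra6 (-0.23 ± 0.07), Grik3 (-0.21 ± 0.07) and Grin2a (-0.21 ± 0.06) fell with overlapping arrays, the Grik3 call being lost in 3 of the 29 fits (-0.17 without MPTP-exposed TgR replicate 1). The strongest regional genes did not pass here: Gabra3 was -0.01 ± 0.18, Gria3 0.18 ± 0.17, Grik2 0.14 ± 0.09 and Gabrb2 -0.01 ± 0.14. Within strains, the Gria1 rise was called for FVB/N (0.32) and TgS (0.59), and that of Grin2d for FVB/N, TgS and TgR (0.46, 0.48 and 0.27). Per strain 3, 8 and 7 of the 27 genes were called, against 15.4%, 33.7% and 19.3% of all transcripts. Whether the MPTP response differed between strains was called for none of the 27 genes by limma's F test (0.544% of all transcripts; 4 genes at an unadjusted p under 0.05).

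Measures of array and tissue moved with this comparison, the array medians included. The bioB hybridisation control, added to every array, read 6.99 to 7.40 on the MPTP prefrontal arrays and 6.46 to 6.83 on naive replicates 3 and 4, so the set of arrays and MPTP cannot be told apart. Of 12 endothelial and mural markers 8 rose and 0 fell, with means of 7.64 to 8.41 in naive arrays (7.64 to 7.66 in the TgS pair) and 8.24 to 8.63 in MPTP arrays. Against naive replicates 1 and 2, at 8.52 to 8.67, 2 rose and 6 fell. Their part was not tested. Against naive replicates 1 and 2, whose bioB signal was 7.04 to 7.59, the picture was another one, with 67.3% of transcripts called. Grik5 (-0.04 ± 0.06), Grin2c (-0.08 ± 0.07), Gria1 (0.02 ± 0.05) and Grin2d (0.09 ± 0.05) did not pass, whereas Gabrd rose by 0.64 ± 0.05 and Gria3, Gabra3, Gria4 and Grik2 by 1.97, 1.96, 1.49 and 1.04. As means over strains, by the brightest probe sets, Gabrd and Gria4 rose, and Gabrg1, Gabra6, Gabrp, Grik3 and Grin2a fell, against either naive set. The Gabrd rise against replicates 1 and 2 was widest in TgS, from 9.97 and 9.72 to 11.50 and 11.24. Gabrd went from 11.07 and 10.97 to 11.23 and 11.18 in FVB/N, and from 11.08 and 11.30 to 11.43 and 11.39 in TgR. For Gabrb1 (-0.92 ± 0.06) and Gria2 (0.41 ± 0.07) the mean against replicates 1 and 2 does not hold by strain. Gabrb1 went from 11.72 and 11.68 to 8.31 and 8.41 in TgS but from 8.17 and 8.03 to 8.45 and 8.37 in FVB/N, and from 7.86 and 8.19 to 8.33 and 8.26 in TgR. Gria2 went from 12.57 and 12.57 to 11.30 and 11.37 in TgS, while FVB/N and TgR arrays were higher after MPTP.

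**Figure D3:**
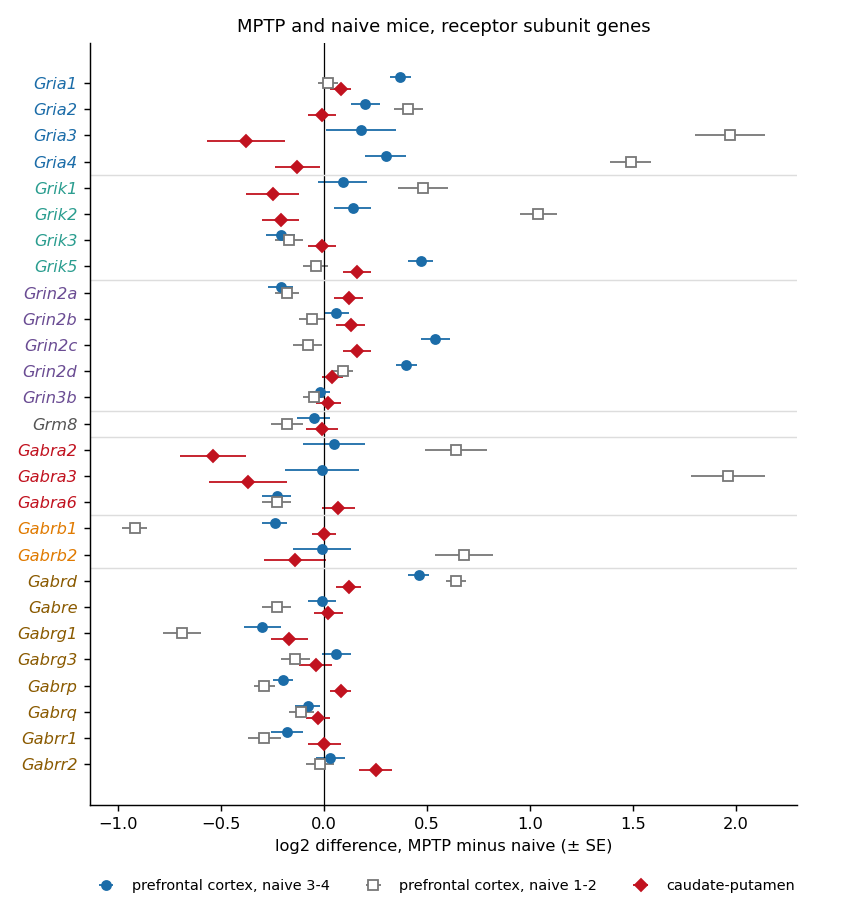
Log2 difference between MPTP and naive mice (mean of 3 strains, bars ± SE) in the prefrontal cortex against naive replicates 3 and 4 (circles) or 1 and 2 (open squares), and in the caudate-putamen (diamonds). Grin2c, Grik5 and Gria1 are to the right of 0 against replicates 3 and 4 and at 0 within about 1 SE against replicates 1 and 2.

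In the caudate-putamen, the region that loses its dopamine input after MPTP, none of the 27 genes passed in limma (3.36% of all transcripts did), and 5 had an unadjusted p under 0.05. The largest value was that of Gabra2, -0.54 ± 0.16 (adjusted p = 0.0702). FVB/N arrays read 6.59 and 6.34 after MPTP, against 6.29 and 6.64 in naive mice. TgS arrays read 7.31 and 7.23 against 7.71 and 7.38, and the TgR array read 5.85 against 7.21 and 7.20. The widest gap was in TgR, which has 1 MPTP array; without that array the value was -0.14. Gria3 (-0.38 ± 0.19) and Gabra3 (-0.37 ± 0.19) also had their lowest MPTP reading in that array. In a fit without naive prefrontal replicates 1 and 2, Gabra2 (adjusted p = 0.00294), Gria3 (0.0239) and Gabra3 (0.0492) passed with the same differences. Leaving out 1 of the TgR or TgS arrays of those replicates was enough for Gabra2, and without naive TgR caudate-putamen replicate 1 Gabrr2 passed (0.34, adjusted p = 0.00851). Gabrd in TgS alone rose by 0.36 ± 0.09 (adjusted p = 0.0377; 3.23% of all transcripts), from 10.98 and 11.05 to 11.37 and 11.38; the test of a difference between strains did not pass (adjusted p = 0.185), and was called for none of the 27 genes (1.03% of all transcripts; 4 genes at an unadjusted p under 0.05). In the caudate-putamen 7 of 11 microglia markers rose after MPTP (means of at most 9.29 in naive arrays and 9.42 to 9.80 after MPTP) and 7 of 10 meningeal and fibroblast markers fell (from 7.21 to 7.80 down to 6.83 to 7.27). Their part in the subunit values was not tested.

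The test of whether MPTP differences differ between regions called 12 of the 27 genes, 8 more positive and 4 more negative in the prefrontal cortex, against 28.1% of all transcripts (15.9% and 12.3%). The prefrontal change was the more positive one for Gabra2, Gria4, Grin2c, Grin2d, Grik2, Gabrd, Grik5 and Gria1 (0.28 to 0.59) and the more negative one for Grin2a, Gabra6, Gabrp and Gabrb1 (-0.33 to -0.24). Many of these calls were near the threshold: Gabra2 and Grik2 lost theirs in 20 of the 29 fits that left out 1 array, Gabrb1 in 14, Gabra6 in 13 and Gria4 in 12. Without the single MPTP-exposed TgR caudate-putamen array, where Gabra2 was 0.25, 5 were called, and without MPTP-exposed TgS caudate-putamen replicate 2, or without naive FVB/N prefrontal replicate 3, 7 were. Gria1, Grik5, Grin2c, Grin2d and Gabrd kept the call in each fit that left out 1 array, but of these Gabrd alone (0.52) was called with naive replicates 1 and 2, where 53.2% of transcripts were. Grin2d was 0.05 there, and Gria1, Grik5 and Grin2c had the opposite sign (-0.06, -0.20 and -0.24). The prefrontal rise of Gabrd against those replicates was widest in TgS, from 9.97 and 9.72 to 11.50 and 11.24.

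Strain differences were averaged over naive and MPTP-exposed mice and were called in the caudate-putamen. Compared with FVB/N, 3 genes were higher in TgS (Gabra2, Grik2 and Gabrb1; 11.1% against 8.9% of all transcripts, 5.34% higher and 3.55% lower) and 2 in TgR (Gabrb1 and Gabrd; 7.41% against 4.09%, 2.46% higher and 1.63% lower), and 0 were lower in either line. By a second probe set Gria1 was also higher in TgS (0.38 ± 0.08, adjusted p = 0.00555), where its brightest probe set gave 0.00 ± 0.06. Gabrb1 read 8.09 and 8.33 in naive and 8.33 and 8.24 in MPTP-exposed FVB/N mice. It read 8.97 and 8.74, then 8.80 and 8.72, in TgS, and 8.77 and 8.85, then 8.83 (1 array), in TgR. No transgenic array overlapped with FVB/N, and the log2 difference was 0.56 ± 0.07 in TgS (1.47-fold, adjusted p = 4.83e-05) and 0.57 ± 0.08 in TgR (1.49-fold, adjusted p = 0.000534). In the prefrontal cortex the same gene differed by 0.07 ± 0.07 and 0.01 ± 0.07, and it was the 1 gene here for which the strain difference itself differed between regions (F test, adjusted p = 0.014; 1.21% of all transcripts). With naive prefrontal replicates 1 and 2 the prefrontal difference of Gabrb1 was 1.78 ± 0.07 in TgS (adjusted p = 6.06e-13) and -0.10 ± 0.07 in TgR, and with the mean of both naive sets 0.92 in TgS, so a difference seen in the caudate-putamen alone rests on replicates 3 and 4.

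Gabra2 was higher in TgS caudate-putamen by 0.94 ± 0.18 (1.92-fold, adjusted p = 0.00235). Its FVB/N arrays read 6.29, 6.64, 6.59 and 6.34 and its TgS arrays 7.71, 7.38, 7.31 and 7.23. TgR was split, with naive arrays at 7.21 and 7.20 and the MPTP array at 5.85. Grik2 was higher in TgS by 0.59 ± 0.11 (adjusted p = 0.00162), with 9.81, 9.70, 9.88 and 9.59 against 9.10, 9.45, 9.14 and 8.94 in FVB/N. In TgR it was higher by 0.42 ± 0.12 (adjusted p = 0.0583), and passed in a fit without naive prefrontal replicates 1 and 2 (adjusted p = 0.0155). Gabrd was higher in TgR by 0.37 ± 0.07 (adjusted p = 0.00881), with 11.56, 11.55 and 11.70 against 11.40, 11.26, 11.25 and 11.12, a call that was lost without the single MPTP array (0.22, adjusted p = 0.512). Markers of other tissue moved with strain. Thalamic markers (10 genes) had a mean of 7.65 to 8.03 in naive TgS and 7.25 to 7.27 in naive FVB/N caudate-putamen, and after MPTP of 7.18 to 7.27 in TgS and 7.34 to 7.48 in FVB/N. The difference of TgS from FVB/N among MPTP arrays was 0.70 for Grik2 (adjusted p = 0.0173) and 0.81 for Gabra2 (adjusted p = 0.107, not called). Choroid plexus and ependyma markers were 6.93 to 7.07 in TgR and 6.72 to 8.47 in FVB/N. The part of either list was not tested. Without naive TgR prefrontal replicate 1 or 2, which enter the shared estimate of spread, 5 genes were called in TgS and 4 in TgR.

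**Figure D4:**
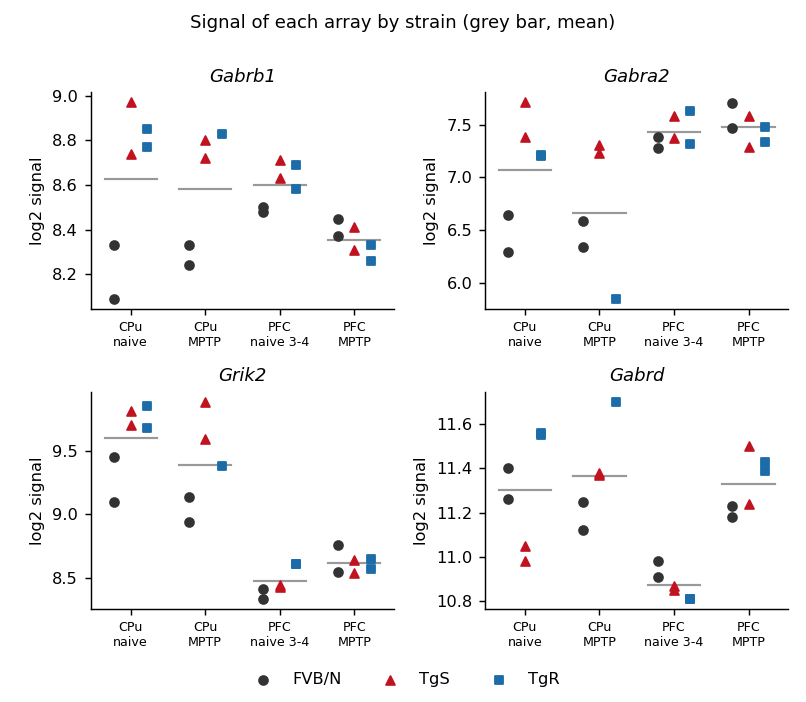
Log2 signal of every array for 4 genes by strain in caudate-putamen (CPu) and prefrontal cortex (PFC, naive replicates 3 and 4), with grey bars at the mean of the arrays. For Gabrb1 all TgS and TgR caudate-putamen arrays, 8.72 to 8.97, are above the FVB/N arrays, 8.09 to 8.33, while the strains lie close together in the prefrontal cortex.

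In the prefrontal cortex no gene of the set passed in either line. By limma, 2 had an unadjusted p under 0.05 in TgS and 1 in TgR, and 2.21% and 0.433% of all transcripts were called. With naive replicates 1 and 2, 7 and 9 genes were called, against 16.2% and 24.7% of all transcripts. The largest values were Gabrg1 in TgR (0.24 ± 0.11, adjusted p = 0.442) and Gabre in TgS (0.24 ± 0.08, adjusted p = 0.179), and the latter passed without MPTP-exposed FVB/N replicate 2 (0.34, adjusted p = 0.0359) or naive TgS replicate 4 (0.33, adjusted p = 0.0498).

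The genes that bind, anchor and feed these receptors were read from lists of 34 measured receptor partners and scaffolds and 19 measured genes of glutamate and GABA synthesis and transport. Of the partners, 12 were higher and 13 lower in naive prefrontal cortex (12 and 8 with naive replicates 1 and 2), and 13 and 10 after MPTP, where 22% and 28%, and 23.7% and 27%, of all transcripts were called. Cnih3, which escorts AMPA receptors, was higher by 1.77 ± 0.07 and 1.95 ± 0.07, the scaffold gene Homer2 by 0.81 and 0.78, and Neto1, an auxiliary kainate receptor subunit gene, was lower (-0.52 and -0.67). Of the synthesis and transport genes 1 was higher and 8 lower in naive mice, but 8 and 8 with naive replicates 1 and 2, and 5 and 5 after MPTP, against the same shares of all transcripts. Slc32a1, the vesicular GABA transporter gene, was lower (-1.72 ± 0.07 and -1.27 ± 0.08), as was Abat, which breaks GABA down (-1.04 and -0.87). After MPTP in the prefrontal cortex, 15 partners rose and 2 fell, and 10 transport and synthesis genes rose and 2 fell, against 26.7% and 20.5% of all transcripts. The postsynaptic scaffold gene Shank3 rose by 0.72 ± 0.06 and Grina by 0.50 ± 0.03, while Glrb, the glycine receptor beta gene, fell by 0.63 ± 0.07. With naive replicates 1 and 2 the partners were 9 and 11, and the others 3 and 8. Grina (0.32) was still called there, but Shank3 (0.08, adjusted p = 0.303) and Glrb (adjusted p = 0.953) were not. In the caudate-putamen 0 of 34 partners passed after MPTP, where 3.36% of all transcripts did. Slc1a2, the main astrocyte glutamate transporter, rose by 0.40 ± 0.06 and Slc17a6, a vesicular glutamate transporter of thalamic neurons, fell by 0.96 ± 0.12. The mean of 10 thalamic markers was 7.25 to 8.03 in naive and 6.96 to 7.48 in MPTP caudate-putamen arrays, with 0 markers called higher and 2 lower. The part of thalamic tissue in the Slc17a6 value was not tested. In TgS caudate-putamen, Dlg2 (1.37 ± 0.25), Camk2a (1.15 ± 0.24) and the GABA-synthesising enzyme gene Gad2 (1.11 ± 0.17) were higher than in FVB/N.

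Naive prefrontal replicates 1 and 2 had subunit values of their own. Their 6 arrays did not overlap with replicates 3 and 4 for 7 of the 27 genes (17.9% of all transcripts), with Gabra3 (-1.97), Gria3 (-1.79), Gria4 (-1.20) and Grik2 (-0.90) lower and Grin2c (0.61), Grik5 (0.51) and Grin2d (0.31) higher. In TgS, Gabrb1 read 11.72 and 11.68 and Gria2 12.57 and 12.57 in replicates 1 and 2, when the highest of the 23 other arrays was 8.97 and 11.38. The FVB/N and TgR arrays of the same set read 8.17 and 8.03, and 7.86 and 8.19, for Gabrb1. The pattern was thus confined, among these 6 arrays, to the TgS pair.

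**Figure D5:**
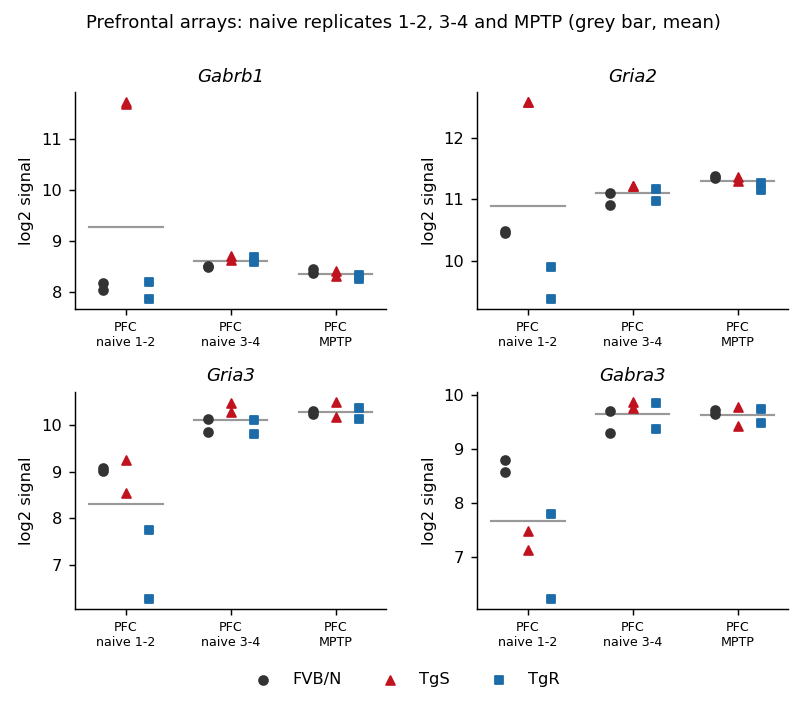
Log2 signal of every prefrontal (PFC) array for 4 genes in naive replicates 1 and 2, naive replicates 3 and 4 and MPTP-exposed mice; symbols mark strains and grey bars the mean of the arrays. In replicates 1 and 2, Gabrb1 and Gria2 are far above all other arrays in TgS, and Gria3 and Gabra3 are below replicates 3 and 4 in every strain.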

How the data were processed

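The authors deposited log2 signals per probe set. The submitters' processing notes name RMA, Affymetrix Expression Console and Affymetrix Power Tools, without versions or settings. The table holds 22690 probe sets, of which 64 controls were left out. Of the other 22626, 20380 carry a single symbol in the platform annotation, 691 several and 1555 none. No detection calls came with it, so the number of arrays limits the precision.

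One linear model in limma 3.58.1 (R 4.3.3) gave a mean to each of 15 groups over all 29 arrays (14 residual degrees of freedom), with default empirical Bayes moderation, two-sided tests and Benjamini-Hochberg adjustment over all transcripts within a comparison. Strains were weighted equally, errors after ± are standard errors, and groups of 1 or 2 arrays are assumed to vary like the rest. Signals of different probe sets were not compared. The fit was tested on simulated data. Values by array are given for up to 3 genes a class with the largest regional difference after MPTP and for genes called in an MPTP or strain comparison; of the partner lists, up to 6 genes a comparison by smallest p. The receptor genes and all lists were chosen with earlier results of these data known.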

Additional observations from a re-analysis of the deposited data

Results flagged for a closer look

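Where the MPTP difference itself differed between regions, the log2 gap (prefrontal cortex minus caudate-putamen) was 0.59 for Gabra2, 0.43 for Gria4, 0.37 for Grin2c, 0.36 for Grin2d, 0.35 for Grik2, 0.34 for Gabrd, 0.31 for Grik5, 0.28 for Gria1, -0.24 for Gabrb1, -0.28 for Gabrp, -0.30 for Gabra6 and -0.33 for Grin2a. For Gabrb1 the strain difference also differed between regions (limma F test, adjusted p = 0.014).

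In the naive prefrontal cortex, with 4 arrays per strain, 3 of 81 checks found an array far from the other 3, and chance flags about 1 in 20: TgR replicate 4 for Gabra6 (5.05 against 5.24 to 5.27), TgR replicate 1 for Gabrr1 (6.16 against 5.81 to 5.83) and TgR replicate 3 for Gria1 (10.33 against 10.50 to 10.52).

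Outside the arrays used for the comparisons, naive TgS prefrontal replicates 1 and 2 exceeded the highest of the 23 other arrays by 2.71 for Gabrb1 (8.97) and by 1.19 for Gria2 (11.38) on the log2 scale.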

How the results depend on the processing

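Counts of the 27 genes called moved by over 1.5 times in these cases, and the cause was not tested. With naive replicates 1 and 2 in place of 3 and 4, TgS and TgR prefrontal counts were 7 and 9. Of all transcripts 16.2% and 24.7% were called there. Strain by MPTP in the prefrontal cortex and strain by region then called 8 genes each. With the mean of both naive sets, prefrontal MPTP called 20, TgS 3, TgR 1, strain by MPTP 3 and strain by region 3. With 12 group means and a term for replicates 3 and 4, TgS and TgR caudate-putamen and strain by region called 0. Without the 6 arrays of replicates 1 and 2, caudate-putamen MPTP called 3, TgS 5, TgR 4, strain by MPTP 2 and strain by region 4; with each region fitted alone, caudate-putamen MPTP called 3 and TgS 7. The mean of a gene's probe sets gave 1 for caudate-putamen MPTP and 2 for strain by region, and trended, robust variance 2 for strain by region. Counts over all transcripts moved as well, in some comparisons, in each of these settings but trended, robust variance.

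Directions turned with naive replicates 1 and 2, and equally with the set term, for the naive regional difference of Gabra3 (-0.67), Gabrb2 (-0.04), Gria3 (-0.96), Gria4 (-0.89), Grik5 (0.08), Grin2c (0.36) and Grin2d (0.09), for prefrontal MPTP in Grik5 (-0.04) and Grin2c (-0.08), and for region by MPTP in Gria1 (-0.06), Grik5 (-0.20) and Grin2c (-0.24). With replicates 1 and 2 alone they turned for Grm8 in TgS (-0.10) and for Grik5 (-0.01) and Gabrg3 (0.04) in TgR prefrontal cortex, none of them called. The mean of both sets turned the naive regional Gria3 (-0.06), Gria4 (-0.30) and Grin2c (0.06), and the mean of probe sets turned prefrontal MPTP Gria2 (-0.15). Without MPTP-exposed FVB/N prefrontal replicate 1, Gabrg3 in TgR prefrontal cortex was 0.02, within -0.19 to 0.02 over the left-out arrays.

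Leaving out each array in turn gave 16 to 19 genes for region in naive mice, 15 to 17 after MPTP, 10 to 14 for prefrontal MPTP, 0 to 1 for caudate-putamen MPTP, 5 to 14 for region by MPTP, 3 to 5 for TgS and 1 to 4 for TgR in the caudate-putamen, 0 to 1 for TgS and 0 for TgR in the prefrontal cortex, 1 to 4 for strain by region and 0 for strain by MPTP in both regions. TgR prefrontal replicates 1 and 2 and TgS prefrontal replicates 1 and 2 of the naive mice gave most of the higher counts. The counts of all transcripts called shifted between these fits too, so the shifts are not particular to the receptor genes.

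Arrays with the same replicate number, compared between strains or between arms of the caudate-putamen, did not deviate together (15 residual correlations, -0.41 to 0.15). No correlation joined the prefrontal cortex to the caudate-putamen, so whether their arrays come from the same mice was not tested. With the replicate number as a block, region by MPTP called 7 genes, prefrontal MPTP 11, region in naive mice 14 and after MPTP 15, TgS 3 and TgR 2 in the caudate-putamen. Leaving out the 0.25 of probe sets with the lowest mean removed Gabra6, Gabrr2, Gabrq, Grin2a and Gabrr1, left 22 genes and turned no direction. Quantile normalization turned none either, but 5 calls were lost: Gria4 in prefrontal MPTP, and Gabra2, Gabra6, Gria4 and Grik2 in region by MPTP. It added calls for Gabra2 and Grin3b in the naive regional comparison. Grin2a was added in that after MPTP and in TgR caudate-putamen. Few arrays per group limit what small differences can be seen.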
